A study of Rattus norvegicus with 8 samples.

Results

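The genes described here are the NRF2 regulator and 5 enzymes of the antioxidant and heme-degrading defence, chosen by their Ensembl rat gene IDs: Nfe2l2 (ENSRNOG00000001548), Hmox1 (ENSRNOG00000014117), Nqo1 (ENSRNOG00000012772), Cat (ENSRNOG00000008364), Sod1 (ENSRNOG00000002115) and Sod2 (ENSRNOG00000019048). All 6 were found among the 21549 genes of the files. RNA was sequenced from the hearts of 8 Sprague Dawley rats, an outbred laboratory strain, aged 3 months. The normoxia group, labelled as control, had 4 rats kept in normal oxygen, and the hypoxia group had 4 rats kept in chronic hypoxia, that is, in air or gas of reduced oxygen over a long time. Each library was taken as 1 animal, since the labels' protocols describe 4 hypoxic and 4 normoxic rats. No genotype or drug differs between the groups in the labels. How low the oxygen was, how long the rats stayed in it, their sex and which part of the heart was taken are stated in none of the sources used here. The libraries hold RNA of whole tissue, so fewer cells of a type and less RNA per cell cannot be told apart for any gene below.

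Nfe2l2 encodes NRF2, a transcription factor that is held low in resting cells by KEAP1-directed degradation and that accumulates when oxidants or electrophiles modify KEAP1. NRF2 pairs with small MAF proteins on antioxidant response elements and raises genes such as Nqo1 and Hmox1. As the protein is controlled mainly by its stability, the mRNA of Nfe2l2 is not a direct reading of NRF2 activity. Superoxide is turned into hydrogen peroxide by SOD1 in the cytosol and by SOD2 in the mitochondrial matrix, and catalase, the product of Cat, breaks hydrogen peroxide down to water and oxygen. The heart is rich in mitochondria, a main site of superoxide formation.

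Of these genes 4 differed between the groups, as did 33.0% of all tested genes. The promoters of the 4 are shown because the genes did not move the same way. The set of RefSeq promoters used here (assembly GRCr8) held 5 of the 6 symbols, namely Nfe2l2, Nqo1, Cat, Sod1 and Sod2. It had no entry for Hmox1, whose promoter was therefore not examined. Each line gives the 250 bases before the annotated start, 5′ to 3′ on the gene's strand. Capitals mark matches on either strand to 4 motifs: the antioxidant response element core TGACNNNGC, the hypoxia response element cores ACGTG and GCGTG, and the CCAAT box, written CCAAT. No matches overlap.
Nqo1, chr19:52220268-52220517, minus strand: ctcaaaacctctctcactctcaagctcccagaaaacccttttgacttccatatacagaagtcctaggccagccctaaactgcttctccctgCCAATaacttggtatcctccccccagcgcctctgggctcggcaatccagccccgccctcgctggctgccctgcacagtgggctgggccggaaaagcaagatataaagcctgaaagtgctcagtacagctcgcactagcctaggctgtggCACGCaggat
Sod2, chr1:50050169-50050418, minus strand: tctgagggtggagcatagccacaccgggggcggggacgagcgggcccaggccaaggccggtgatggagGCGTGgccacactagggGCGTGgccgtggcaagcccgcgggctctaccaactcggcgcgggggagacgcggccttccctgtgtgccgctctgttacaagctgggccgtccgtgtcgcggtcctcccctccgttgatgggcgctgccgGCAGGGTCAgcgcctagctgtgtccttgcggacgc
Sod1, chr11:42942573-42942822, plus strand: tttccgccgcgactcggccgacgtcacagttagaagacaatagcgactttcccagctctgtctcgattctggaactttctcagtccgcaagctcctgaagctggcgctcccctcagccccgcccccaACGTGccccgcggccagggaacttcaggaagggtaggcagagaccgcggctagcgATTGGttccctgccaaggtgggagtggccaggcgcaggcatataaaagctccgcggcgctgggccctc
Cat, chr3:110329527-110329776, minus strand: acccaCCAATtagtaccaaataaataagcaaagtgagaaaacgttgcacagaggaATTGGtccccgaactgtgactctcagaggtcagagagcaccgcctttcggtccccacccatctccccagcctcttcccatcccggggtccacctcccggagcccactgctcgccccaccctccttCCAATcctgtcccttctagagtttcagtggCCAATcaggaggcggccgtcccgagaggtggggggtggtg

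Within these windows the antioxidant response element core was found in 1 of the 5 promoters, that of Sod2, on the opposite strand at 35 to 27 bases before the start. The same core was in 10.1% of the 33469 RefSeq promoters of that length. The hypoxia core ACGTG was found in Sod1, 123 to 119 bases before the start, and in 16.6% of all promoters. The core GCGTG was found at 182 to 178 and 165 to 161 bases before the start of Sod2 and, on the opposite strand, 10 to 6 bases before that of Nqo1, against 25.9% of all promoters. The Cat window held 4 CCAAT boxes and none of the other motifs, Nqo1 and Sod1 held 1 CCAAT box each, and 34.0% of all promoters held at least 1. The Nfe2l2 window held none of the 4 motifs. The bases G and C made up 56.4% of the Nqo1 window, 58.8% of Cat, 63.2% of Sod1, 69.2% of Nfe2l2 and 71.6% of Sod2. Their median over all promoters was 51.2%, and the shares of all promoters were not matched for it. A match to such short letters is a description of the sequence and not a bound site, and elements outside the windows were not searched.

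In chronic hypoxia Nqo1 was 1.76-fold and Sod2 1.46-fold higher, and Cat was 1.54-fold lower. Sod1 was 1.35-fold higher, a call that was lost with a correction for gene-model length and with library totals alone. The group means of Nfe2l2 itself lay closer together than animals of one group did, and Hmox1 did not pass. All 6 genes passed the filter on low counts. Of them, 4 were called (an adjusted p under 0.05 from the edgeR quasi-likelihood fit, Benjamini-Hochberg method over 14214 genes), against 33.0% of all tested genes. Higher in hypoxia were 3 of the 6, against 17.7% of all tested genes, and lower was 1 of the 6, against 15.3%. The same 4 genes had groups that did not overlap, which held for 34.3% of all tested genes, 17.3% with hypoxia the higher and 17.1% with hypoxia the lower. The median log2 fold change, hypoxia minus normoxia, was 0.22 over the 6 genes and 0.01 over all tested genes. With 6 deliberately chosen genes these shares are a description.

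Library totals ran from 26229304 to 32160710 counts, and each member had at least 367 counts in every library, so counting error was small beside the spread between animals. The hypoxic hearts varied more than the normoxic ones. Over all tested genes, the spread between animals (edgeR's biological coefficient of variation) was 9.54% in normoxia and 22.9% in hypoxia. Averaged over counts, gene-model length was 2596 to 2628 bp in normoxia and 2220 to 2375 bp in hypoxia, so that short gene models took a larger share of the hypoxia libraries. Values per library below are CPM, counts relative to the TMM-scaled library size, and n is 4 in each group.

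Nfe2l2 was at 75.5, 88.8, 81.2 and 78.3 CPM in normoxia libraries 1 to 4 and at 80.3, 91.5, 75.0 and 77.3 CPM in hypoxia libraries 1 to 4. The groups overlapped almost fully, with library 2 the highest in each. The means were 80.9 ± 5.70 and 81.0 ± 7.31 CPM (SD, n = 4 each). The log2 fold change was 0.00 (0.0015, edgeR adjusted p = 0.992, SE 0.0888), with a 95% interval from −0.20 to 0.20. That interval allows a change between a level 0.873 times and one 1.15 times the normoxic level under TMM scaling. With libraries scaled by their totals alone, which moved the median of all tested genes to −0.17, the log2 fold change of Nfe2l2 was −0.18 and was not called.

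Nqo1 encodes NAD(P)H quinone dehydrogenase, an enzyme that reduces quinones in a single 2-electron step and is a standard readout of NRF2. It was at 10.9, 12.8, 14.8 and 12.1 CPM in normoxia and at 22.1, 26.8, 18.6 and 21.7 CPM in hypoxia. Every hypoxic heart lay above every normoxic one, with the lowest hypoxia value in library 3. The means were 12.7 ± 1.62 and 22.3 ± 3.36 CPM (SD, n = 4 each), which is a log2 fold change of 0.82 (edgeR adjusted p = 0.00174, SE 0.13), or 1.76-fold with a 95% interval from 1.44 to 2.15. Its rise was the largest among the 6 genes, and 7.08% of all tested genes had a higher log2 fold change. Its counts ran from 367 to 773 per library.

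Hmox1 encodes the inducible heme oxygenase, which opens heme to biliverdin, iron and carbon monoxide, and it is the other classical NRF2 target measured here. It stood at 23.9, 26.8, 26.0 and 32.3 CPM in normoxia and at 17.3, 30.2, 19.8 and 16.7 CPM in hypoxia. In hypoxia 3 hearts lay below the whole normoxia range, and hypoxia library 2 lay inside it. The means were 27.2 ± 3.56 and 21.0 ± 6.30 CPM (SD, n = 4 each), and the log2 fold change of −0.37 did not pass (edgeR adjusted p = 0.145, SE 0.18, 95% interval −0.78 to 0.04). Without hypoxia library 2 the log2 fold change was −0.61 and passed (edgeR adjusted p = 0.00558). With library totals alone, which moved the median of all tested genes to −0.17, it was −0.55 and passed as well (edgeR adjusted p = 0.0285). Without normoxia library 4, hypoxia library 1 or hypoxia library 4 it was −0.28, −0.30 and −0.28 and did not pass. Of 22 alternative settings, 5 passed.

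**Figure D1:**
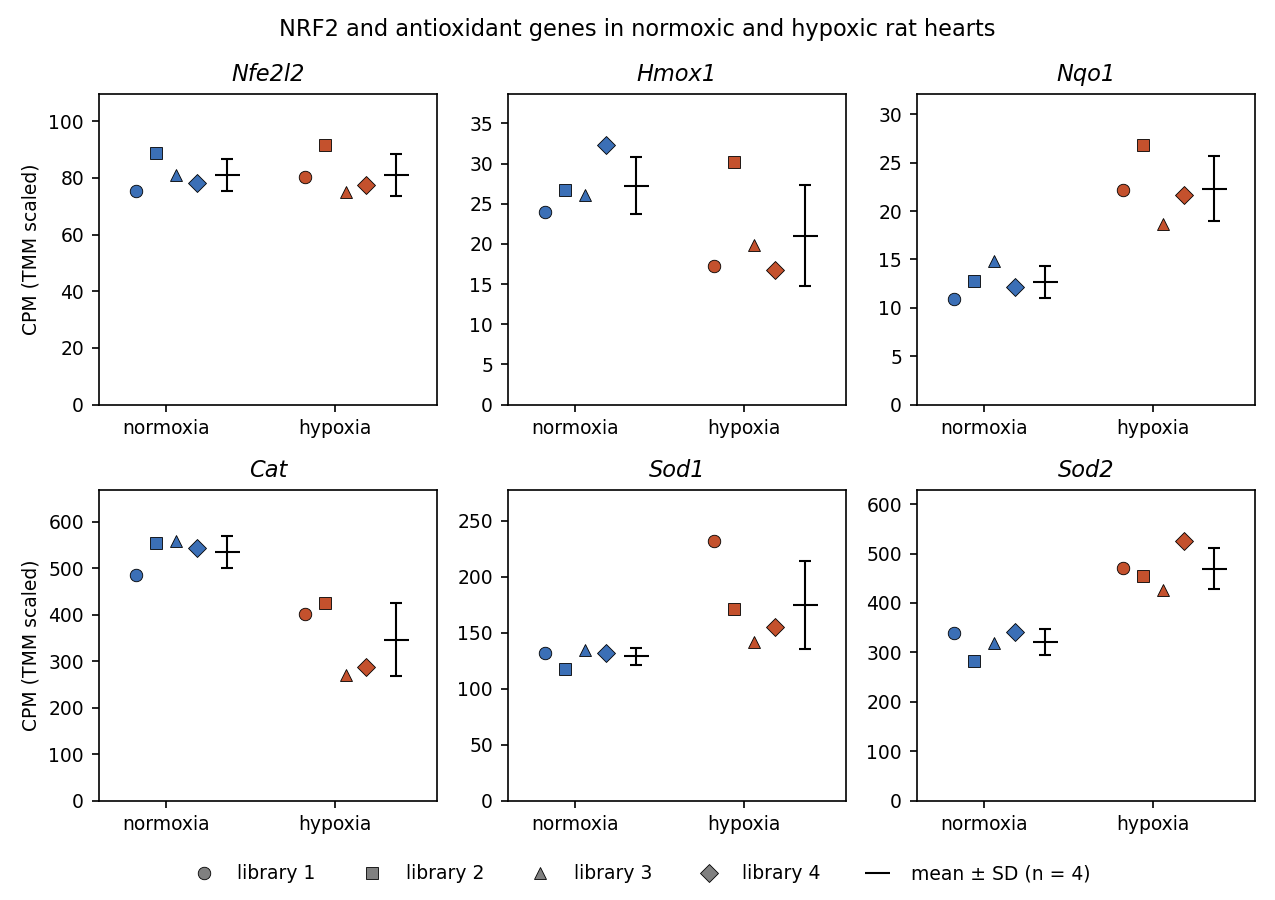
CPM after TMM scaling (y axis, from 0) for each of the 6 genes in 4 normoxia and 4 hypoxia libraries. Symbols are libraries 1 to 4 of each group, whose numbers do not pair animals, and bars are the mean ± SD. Nqo1, Sod1, Sod2 and Cat show no overlap between groups, whereas Nfe2l2 overlaps fully and Hmox1 overlaps through hypoxia library 2.

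Sod2, the manganese superoxide dismutase of mitochondria, was at 339, 283, 319 and 341 CPM in normoxia and at 471, 455, 426 and 525 CPM in hypoxia. The lowest hypoxic heart stood 85.1 CPM above the highest normoxic one. The means were 320.5 ± 26.8 and 469.0 ± 41.4 CPM (SD, n = 4 each), which is a log2 fold change of 0.55 (edgeR adjusted p = 0.00292, SE 0.10), or 1.46-fold with a 95% interval from 1.26 to 1.70. Relative to its level it varied little in either group, with a coefficient of variation of 8.35% in normoxia and 8.84% in hypoxia.

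Sod1, the copper and zinc superoxide dismutase of the cytosol, was at 131, 118, 135 and 132 CPM in normoxia and at 231, 171, 142 and 155 CPM in hypoxia. All 4 hypoxic hearts lay above the normoxic ones, but library 1 stood well above the other hypoxia libraries and library 3 was just 6.94 CPM above the highest normoxic value. The means were 129 ± 7.55 and 175 ± 39.7 CPM (SD, n = 4 each), which is a log2 fold change of 0.44 (edgeR adjusted p = 0.0390, SE 0.14), or 1.35-fold with a 95% interval from 1.09 to 1.69. The size of the change moved with the scaling. With gene-model length corrected for, the log2 fold change was 0.09 (edgeR adjusted p = 0.506). The Sod1 gene model has 656 bp, and 93.9% of tested genes have a longer one. With library totals alone it was 0.27 (edgeR adjusted p = 0.188), and the deposited FPKM values of the groups overlapped. Without normoxia library 1, 2, 3 or 4 the log2 fold change was 0.44, 0.39, 0.46 and 0.45, close to that of all 8 libraries. It did not pass in these 4 fits (edgeR adjusted p = 0.0791, 0.104, 0.0760 and 0.0815). Without hypoxia library 2 it was also 0.44 (edgeR adjusted p = 0.0576). Without hypoxia library 1 the log2 fold change was 0.27 and still passed (edgeR adjusted p = 0.0458).

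Cat, which encodes the mainly peroxisomal catalase, was the 1 called gene that was lower in hypoxia. It was at 484, 553, 558 and 543 CPM in normoxia and at 402, 424, 271 and 288 CPM in hypoxia. Every hypoxic heart lay below every normoxic one, and within hypoxia libraries 3 and 4 lay below libraries 1 and 2. The means were 534.5 ± 34.1 and 346 ± 78.1 CPM (SD, n = 4 each), and the log2 fold change was −0.63 (edgeR adjusted p = 0.0110, SE 0.15), or 1.54-fold lower in hypoxia. The 95% interval of the log2 fold change ran from −0.96 to −0.29, and 7.82% of all tested genes had a lower log2 fold change. With hypoxia libraries 1 and 2 left out it was −0.94 (edgeR adjusted p = 8.06e-05), and with libraries 3 and 4 left out it was −0.38 (edgeR adjusted p = 0.00847). The pairs were set apart after these levels were seen, so the larger change in libraries 3 and 4 follows from how they were chosen.

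**Figure D2:**
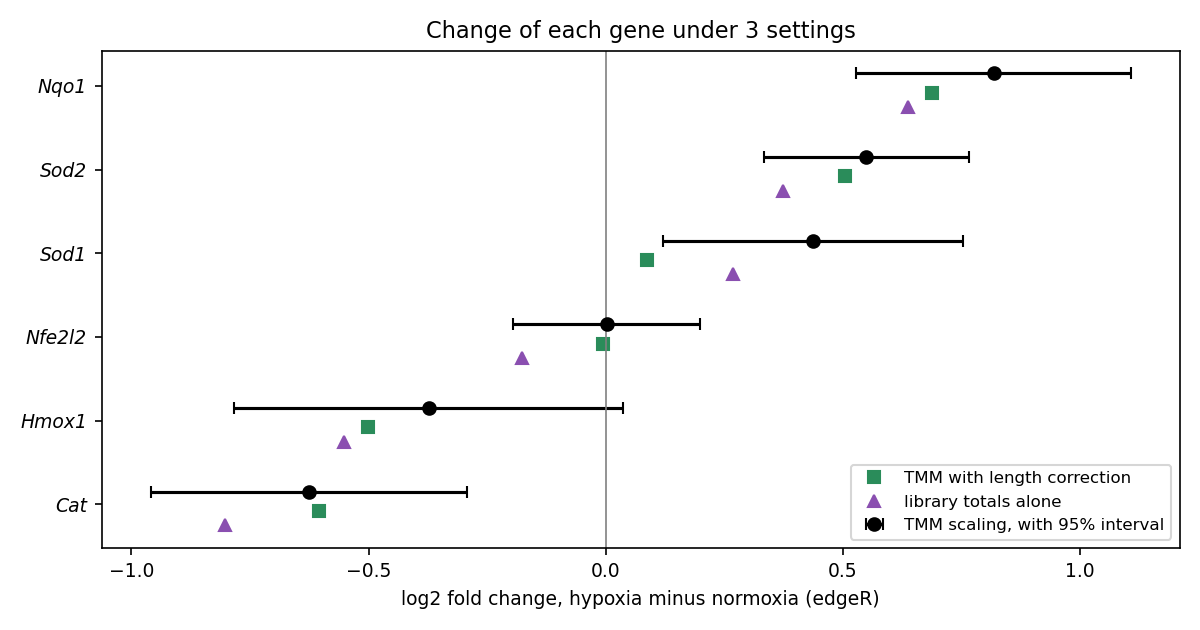
Log2 fold change, hypoxia minus normoxia (x axis), of each gene from the edgeR fit. Black points are the TMM-scaled fit with its 95% interval, green squares add a correction for gene-model length, and purple triangles use library totals alone. Every gene but Nfe2l2 keeps its side of 0 with each setting. Sod1 falls from 0.44 to 0.09 with the length correction, and the intervals of Hmox1 and Nfe2l2 include 0.

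The summed level of the 6 genes differed between the groups by less than its spread between animals. Together they stood at 1105 ± 36.5 CPM in normoxia and 1114 ± 124 CPM in hypoxia (SD, n = 4 each), between 0.0946% and 0.121% of a library's counts. The sum joins opposite changes. Hypoxia minus normoxia, the group means differed by −188 CPM for Cat, 148 for Sod2 and 45.6 for Sod1. For Nqo1, Hmox1 and Nfe2l2 the differences were 9.64, −6.22 and 0.08 CPM. Each of the 6 had the larger coefficient of variation in hypoxia, from 8.84% for Sod2 to 30.0% for Hmox1. In normoxia these ran from 5.85% for Sod1 to 13.1% for Hmox1.

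Levels between genes were compared in the deposited FPKM, which scales counts by gene-model length and by library total. In normoxia Cat was highest at 224 ± 14.7 FPKM (SD, n = 4), followed by Sod1 at 209 ± 10.9 and Sod2 at 165 ± 11.9. The ranges of Cat and Sod1 overlapped, with Cat the higher in 3 of 4 libraries, and those of Sod1 and Sod2 did not. Nfe2l2 was at 37.3 ± 3.12, Hmox1 at 18.4 ± 2.02 and Nqo1 at 8.52 ± 1.13 FPKM, each below the one before without overlap.

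In hypoxia the order differed at both ends. Sod1 was then first at 251 ± 63.7 FPKM (SD, n = 4), overlapping Sod2 at 214 ± 14.3, and Cat followed at 128 ± 28.3 without overlapping Sod2. Nfe2l2 followed at 33.0 ± 2.41 FPKM. Nqo1 at 13.2 ± 1.57 and Hmox1 at 12.6 ± 3.41 FPKM overlapped, each being the higher in 2 of 4 libraries. Among all 21549 genes ranked by mean FPKM, Cat went from place 234 to 417, Nqo1 from 5476 to 3604 and Hmox1 from 2903 to 3746. The reads of near-identical gene copies cannot be separated in these values, since the counting rule for such reads is not given in the sources used here.

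**Figure D3:**
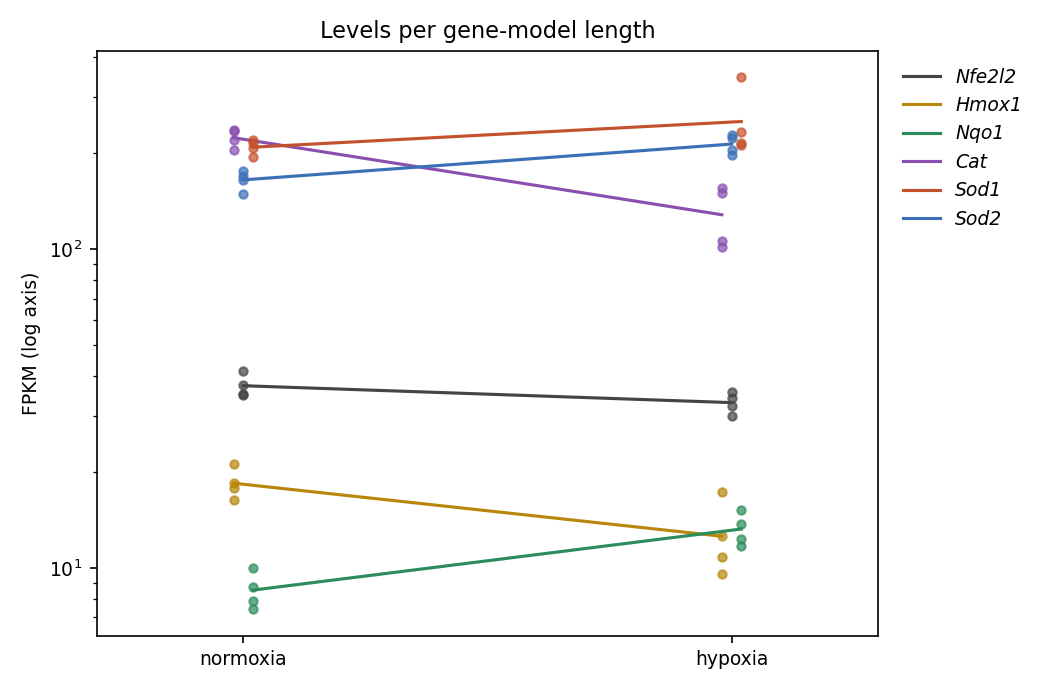
FPKM (y axis, log scale) of the 6 genes in normoxia and hypoxia, with points for the 4 libraries of each group and lines joining the group means. In the upper part, the line of Cat goes from 224 to 128 FPKM and crosses those of Sod1 and Sod2. In the lower part, the lines of Hmox1 and Nqo1 cross and end at 12.6 and 13.2 FPKM.

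The ratio of 2 genes within a library does not depend on how libraries are scaled, and 5 such ratios of FPKM were tested, each by an exact two-sided permutation of the 8 libraries with Benjamini-Hochberg adjustment over the 5. The smallest p this design allows is 0.0286, and the adjusted value of 0.0476 is reached because 3 ratios share it. The ratios were chosen with earlier results of these data known, and the adjustment does not cover that choice. Their p-values are therefore a description of how far the groups separate. Cat stood at 0.952, 1.21, 1.07 and 1.06 times Sod1 in normoxia and at 0.449, 0.643, 0.494 and 0.481 times Sod1 in hypoxia. The groups did not overlap, and the ratio was 2.09-fold lower in hypoxia (difference of mean log2 ratios −1.07, n = 4 each, exact permutation p = 0.0286, adjusted 0.0476). In CPM, Cat was lower and Sod1 higher in every hypoxic heart than in every normoxic one. The ratio therefore had to separate the groups, and its p is no result beyond those of the single genes. These 2 genes differ most in gene-model length, at 2539 and 656 bp. The difference between their fitted log2 fold changes was −1.06 under TMM and −0.69 with the length correction.

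Nqo1 stood at 0.212, 0.210, 0.266 and 0.226 times Nfe2l2 in normoxia and at 0.403, 0.428, 0.363 and 0.410 times in hypoxia. The mRNA of Nqo1 was higher relative to that of its regulator in every hypoxic heart, by 1.76-fold on average (difference of mean log2 ratios 0.81, n = 4 each, exact permutation p = 0.0286, adjusted 0.0476). The gene models have 1579 bp for Nqo1 and 2307 bp for Nfe2l2. The difference between their fitted log2 fold changes was 0.82 under TMM and 0.69 with the length correction. Hmox1 relative to Nfe2l2 was 0.444 to 0.607 in normoxia and 0.317 to 0.487 in hypoxia, ranges that overlapped (difference −0.41, n = 4 each, exact permutation p = 0.114, adjusted 0.143). For Hmox1 and Nfe2l2 the fitted difference was −0.37 under TMM and −0.50 with the length correction, neither of which was tested.

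The 2 NRF2 targets were set against each other directly. Hmox1 stood at 2.203, 2.12, 1.77 and 2.68 times Nqo1 in normoxia and at 0.788, 1.14, 1.07 and 0.778 times in hypoxia. No values overlapped, and the ratio was 2.33-fold lower in hypoxia (difference of mean log2 ratios −1.22, n = 4 each, exact permutation p = 0.0286, adjusted 0.0476). The gene models of the pair have nearly the same length, 1566 and 1579 bp, and the difference between their fitted log2 fold changes was −1.19 with and without the length correction. The 2 targets therefore did not change by the same factor in these libraries.

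The ratio of the 2 dismutases varied between the hypoxic hearts. Sod2 stood at 0.821, 0.764, 0.753 and 0.820 times Sod1 in normoxia and at 0.647, 0.847, 0.957 and 1.08 times in hypoxia. Hypoxia library 1, the highest for Sod1, lay below the normoxia range and the other 3 lay above it. The mean log2 ratios differed by 0.14, which did not pass (exact permutation p = 0.4, adjusted 0.4, n = 4 each). Without hypoxia library 1 that difference was 0.28, and without hypoxia library 3 or 4 it was 0.09 or 0.03. The gene models have 2063 bp for Sod2 and 656 bp for Sod1, and the difference between their fitted log2 fold changes was 0.11 under TMM and 0.42 with the length correction, neither of which was tested.

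**Figure D4:**
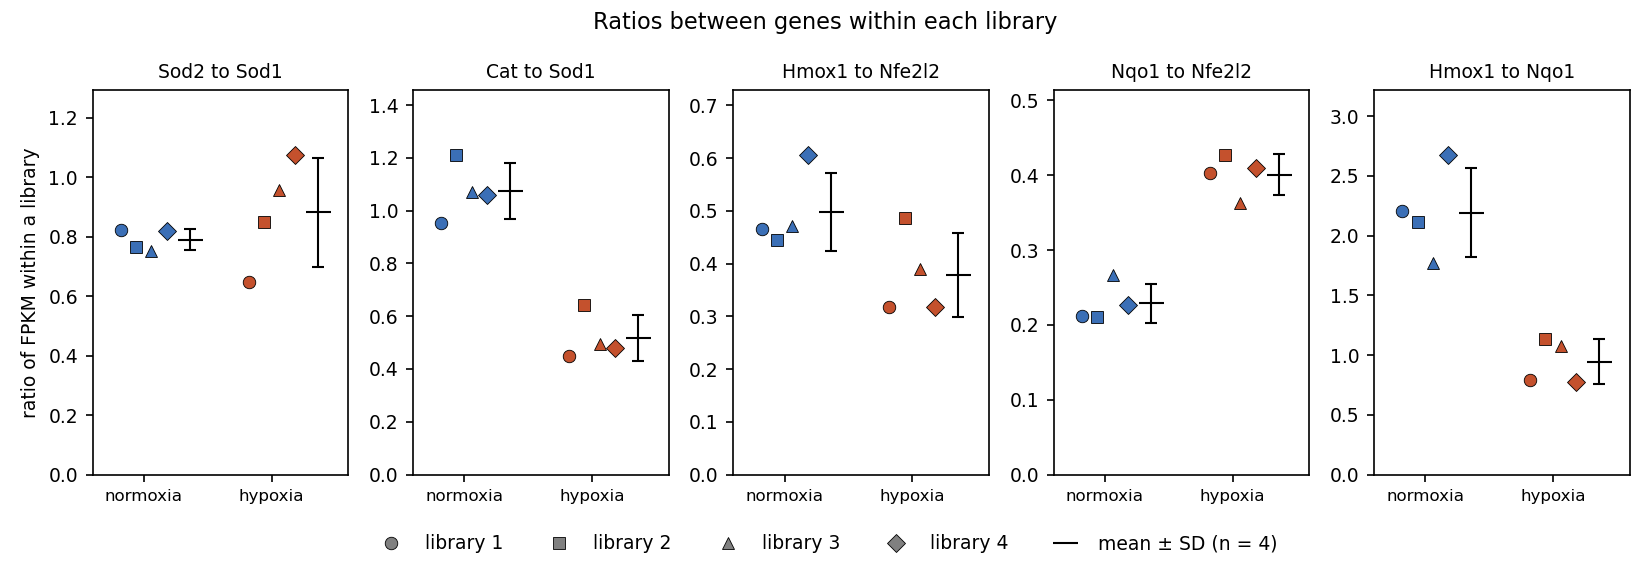
Ratio of FPKM between 2 genes within each library (y axis, from 0) for the 5 ratios compared, in normoxia and hypoxia, with the mean ± SD over 4 libraries. Cat to Sod1, Nqo1 to Nfe2l2 and Hmox1 to Nqo1 show no overlap between the groups, whereas Sod2 to Sod1 and Hmox1 to Nfe2l2 do.

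The gene most like each member was taken as that with the highest Pearson's r of log2 CPM over the 8 libraries, among 12658 other genes whose mean CPM was at least 1. These correlations include the difference between the 2 groups, share the libraries' scaling and carry no test. For Cat it was ENSRNOG00000052415 (r = 0.996), which fell by 0.73 on the log2 scale (edgeR adjusted p = 0.00991). For Sod1 it was ENSRNOG00000024603 (r = 0.991, log2 fold change 0.77, edgeR adjusted p = 0.0213), and for Sod2 ENSRNOG00000002928 (r = 0.993, log2 fold change 0.71, edgeR adjusted p = 0.00136). The genes most like Nqo1, Hmox1 and Nfe2l2 had r = 0.989, 0.959 and 0.948. They were not called (edgeR adjusted p = 0.0560, 0.0601 and 0.812). The other genes that reached an r of 0.95 or more numbered 225 with Cat, 159 with Sod1, 229 with Sod2, 45 with Nqo1, 5 with Hmox1 and 0 with Nfe2l2.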

How the data were processed

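The authors deposited read counts per gene for each library, whole numbers that were not normalized, and FPKM values. Per the submitters' processing notes, the tools were bcl2fastq, HISAT2 2.1.0, Bowtie2 2.2.3 and HTSeq 0.6.0 with genome build rn6. The annotation and the strand setting were not given in the sources used here. Without strand, antisense and overlapping genes cannot be told apart. Dividing counts by FPKM and library total gave 1 gene-model length per gene (100% of values within 0.001).

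Counts of all genes were fitted with edgeR 4.0.16 in R 4.3.3 (filterByExpr minimum count 10, TMM, quasi-likelihood test, no term but group). P-values were adjusted over 14214 genes. The SE came from the test statistic. On simulated data (14073 genes), the fit called 71.4% of genes changed 2-fold, 27.0% of those changed 1.5-fold and 0.0649% of unchanged ones. The simulation held 98 genes changed 2-fold, 100 changed 1.5-fold and 13875 unchanged, with the same spread in both groups. In the real data 33.0% of genes were called and the hypoxic hearts varied more. These rates therefore need not hold for the real comparison. Ratios used scipy 1.17.1. Alternatives were DESeq2 1.42.0, limma 3.58.1, other scalings and filters, FPKM with a pseudocount, a length correction, a replicate block and left-out libraries.

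The files do not pair IDs with symbols, and the gene table matched 0 of 21549 IDs. The 6 symbols are those given with the choice of genes. Other pathway genes and the cell markers of the tissue were therefore not analysed here. All 6 genes are named, called or not. The most similar gene is given by ID only where it was called. The adjusted p-values beside those IDs are thus under 0.05 by that rule. The members, lists and ratios were chosen with earlier results of these data known.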

Additional observations from a re-analysis of the deposited data

How the results depend on the processing

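Nqo1, Sod2 and Cat kept their direction and their call in all 22 alternatives each, with log2 fold changes of 0.58 to 0.94, 0.37 to 0.59 and −0.94 to −0.38. The number of called genes was 3315 to 5982. The share of calls that were higher was 53.6% under TMM, 26.9% when libraries were scaled by totals only and 24.4% for log2(FPKM + 1) values. Nfe2l2 was called in 0 of 22 and its sign changed around 0: −0.18 with library totals alone, −0.17 on both log2(FPKM + 1) and log2(FPKM + 0.1), −0.00073 with limma-voom, −0.00061 with 1 variance per group, −0.0060 with the length correction, −0.00015 with the replicate block, −0.10 without hypoxia libraries 1 and 2, and −0.070 to 0.047 leaving out 1 library. Hmox1 passed in 5 of 22: −0.55 with library totals alone, −0.54 on log2(FPKM + 1), −0.58 on log2(FPKM + 0.1), −0.58 without hypoxia libraries 1 and 2, and −0.61 without hypoxia library 2 (range −0.61 to −0.28 leaving out 1). Sod1 lost its call in 11 of 22. These were 0.27 with library totals alone, 0.087 with the length correction, 0.24 on both FPKM scales and 0.41 with the replicate block (edgeR adjusted p = 0.0625). The call was also lost without hypoxia libraries 1 and 2 (0.19) and without hypoxia library 2 (0.44). Without normoxia library 1, 2, 3 or 4 it was lost at 0.44, 0.39, 0.46 and 0.45. The call held without hypoxia library 1, 3 or 4, at 0.27, 0.53 and 0.48. The causes were not tested. The alternatives that left out 2 hypoxia libraries were chosen after seeing the data. The block gave 3841 calls in all, but replicate numbers pair no animals here (deviations of libraries with one number correlated at −0.0847 to 0.0187, and 0 of 4 normoxia libraries were closest to their own number). It changed no other call among the 6 genes. For the 5 ratios, leaving out a library allows no exact p under 0.0571 and the block none under 0.125, so these alternatives were read by size. Over the 12 alternatives each ratio moved by less than the larger SD between libraries. The 12 did not include the length correction, whose fitted differences are given above with each ratio. With it the difference for Cat and Sod1 went from −1.06 to −0.69, and that for Hmox1 and Nqo1 stayed at −1.19. The block leaves the difference of means unchanged by construction, so it is no check of size. On log2(FPKM + 1) each adjusted exact permutation p was the same as on log2 FPKM. The sign of Sod2 to Sod1 was negative without hypoxia libraries 3 and 4. Each animal is 1 library, so n, not counts, limits these values.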
